A study of Mus musculus with 57 samples.

Results

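The 10 genes described here build, divide and join mitochondria: Ppargc1a, Ppargc1b, Esrra, Mtfp1, Dnm1l, Fis1, Mff, Mfn1, Mfn2 and Opa1. They were taken by symbol from a count table of 21118 genes, and all 10 were found. The material was RNA bound to ribosomes, obtained from mouse cerebral cortex by translating ribosome affinity purification (TRAP) aimed at astroglia. In TRAP, polysomes carrying a tagged ribosomal protein are pulled down with an antibody to the tag. All 53 animals, males and females, carried the Aldh1l1-L10-GFP transgene on a C57BL/6 background, so the promoter of the astrocyte gene Aldh1l1 decided which cells carried the tag. The libraries came from postnatal day 1 (P1, 4 females and 4 males), P4 (4 and 4), P7 (8 and 4), P14 (5 and 5), P35 (3 and 3) and adults (4 and 5). The labels also carry a replicate number, whose first digit (1, 2, 3, 4 or 6) is called the replicate set here. A letter S marks 4 P7 libraries that were sequenced in a second run alone. P7 female 10, P7 male 2, P7 male 6 and P7 female 6 were sequenced in both runs, and no library of another age was in the second.

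New mitochondria need genes of the nucleus and of mitochondrial DNA to be expressed together, and the coactivators PGC-1alpha and PGC-1beta, working with the nuclear receptor ERRalpha and other factors, switch on the nuclear ones. Mitochondria are cut by the GTPase DRP1, which is recruited from the cytosol to receptors on the outer membrane, and joined by mitofusins on the outer membrane and OPA1 on the inner one. In astrocytes, mitochondria extend from the cell body into the fine processes that contact synapses and blood vessels.

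Among the biogenesis genes, Ppargc1a (PGC-1alpha) lies on chromosome 5 (chr5:51454250-51567726, minus strand) and Esrra (ERRalpha) on chromosome 19 (chr19:6910977-6921813, minus strand). Of the fission genes, Mtfp1, which encodes an inner membrane protein that promotes fission, lies on chromosome 11 (chr11:4091480-4095445, minus strand), and Dnm1l (DRP1) on chromosome 16 (chr16:16312230-16358959, minus strand). Fis1 (chr5:136953275-136966234, plus strand) and Mff (chr1:82724890-82752394, plus strand) encode outer membrane proteins, of which MFF is a main receptor for DRP1. The fusion genes are Mfn1 (mitofusin 1, chr3:32529465-32579239, plus strand), Mfn2 (mitofusin 2, chr4:147873599-147904704, minus strand) and Opa1 (chr16:29579334-29654884, plus strand). These positions are those of GENCODE release M21 on GRCm38.

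Promoters of 9 of the 10 genes were found in a RefSeq table on GRCm38.p6, as windows of 300 bases from 250 before to 50 after a start site. The promoters of Ppargc1a (chr5:51567676-51567975 on the minus strand), Esrra (chr19:6921759-6922058 on the minus strand) and Mtfp1 (chr11:4095382-4095681 on the minus strand) are printed because these genes rose together with age. Those of Mfn1 (chr3:32529232-32529531 on the plus strand) and Opa1 (chr16:29579084-29579383 on the plus strand) are printed for the motif letters they hold, and capitals mark every motif match. Each is written 5′ to 3′ on the strand of its gene:
Ppargc1a: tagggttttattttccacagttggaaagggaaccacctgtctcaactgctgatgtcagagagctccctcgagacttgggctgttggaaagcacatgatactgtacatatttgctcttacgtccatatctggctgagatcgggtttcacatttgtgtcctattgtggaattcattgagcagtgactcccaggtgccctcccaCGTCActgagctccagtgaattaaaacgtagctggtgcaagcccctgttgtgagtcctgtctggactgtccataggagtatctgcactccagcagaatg
Esrra: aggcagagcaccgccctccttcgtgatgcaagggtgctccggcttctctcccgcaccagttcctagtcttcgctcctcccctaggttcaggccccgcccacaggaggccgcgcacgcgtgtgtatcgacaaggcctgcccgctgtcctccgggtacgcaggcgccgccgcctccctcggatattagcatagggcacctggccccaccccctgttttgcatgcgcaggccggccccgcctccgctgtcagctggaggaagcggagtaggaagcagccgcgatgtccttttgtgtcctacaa
Mtfp1: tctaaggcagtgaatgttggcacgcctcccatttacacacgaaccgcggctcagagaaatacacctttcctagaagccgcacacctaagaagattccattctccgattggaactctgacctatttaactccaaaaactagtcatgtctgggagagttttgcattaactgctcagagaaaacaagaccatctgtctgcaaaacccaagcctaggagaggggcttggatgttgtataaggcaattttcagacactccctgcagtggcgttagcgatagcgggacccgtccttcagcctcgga
Mfn1: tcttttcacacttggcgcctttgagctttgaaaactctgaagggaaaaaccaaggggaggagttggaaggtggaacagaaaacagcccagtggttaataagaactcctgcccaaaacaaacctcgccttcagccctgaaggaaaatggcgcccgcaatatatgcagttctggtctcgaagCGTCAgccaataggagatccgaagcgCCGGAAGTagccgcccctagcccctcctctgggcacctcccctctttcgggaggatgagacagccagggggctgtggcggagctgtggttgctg
Opa1: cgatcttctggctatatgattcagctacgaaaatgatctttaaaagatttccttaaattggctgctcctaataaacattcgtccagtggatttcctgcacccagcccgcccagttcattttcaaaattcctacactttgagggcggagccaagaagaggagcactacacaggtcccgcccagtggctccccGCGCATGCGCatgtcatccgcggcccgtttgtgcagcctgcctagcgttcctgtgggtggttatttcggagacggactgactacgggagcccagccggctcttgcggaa
Of the motifs searched on both strands, the element of the ERR receptors, TCAAGGTCA, stood in 0 of the 9 genes' windows and in 0.423% of 32851 promoters, and its shorter form AAGGTCA in 0 and in 4.72%. The NRF1 motif was in the Opa1 window, from base -59 to -50 of the start site, and in 0.971% of all promoters. The motif CCGGAAGT of GABP and other ETS factors was in the windows of Fis1 and Mfn1 (from -44 to -37 in Mfn1) and in 3.89% of all. The full cyclic AMP response element TGACGTCA was in 0 of these windows and in 1.79% of all, while its part TGACG was in those of Ppargc1a (from -49 to -45), Mff, Mfn1 and Mfn2 and in 20.8% of all. The longer ERR and cyclic AMP motifs contain their short forms. Some of the 9 genes, such as Mfn2, have several windows, while the percentages are of single promoters.

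Between 14768178 and 48541139 counts were assigned to genes in a library, and the median library had 24033399. The P7 libraries sequenced in both runs had the most, at 42222297 counts or more. All 20 markers of mature astrocytes averaged above 1 CPM (counts scaled to library size) at every age, and so did the 20 neuron markers. Their summed levels ranged from 4425 to 28368 CPM in adults and from 798 to 6197 CPM in P1 libraries for astrocytes, and from 4223 to 25455 CPM in adults and from 2321 to 11728 CPM in P1 libraries for neurons. Several libraries stood apart. P1 female 4 had 10 or more counts for only 10085 genes, and it, P7 female 40 and P14 male 4 are the 3 libraries with the fewest genes. P7 male 6 went against its labelled age, with 1770 CPM of the myelin gene Mbp, against 13.0 to 216 CPM in the other 11 P7 libraries, and 4.58 CPM of the cell cycle gene Cdk1, against 11.6 to 44.1 CPM. P14 male 6 went the other way, with 129 CPM of Mbp, against 143 to 1236 CPM in the other 9 P14 libraries, and 25.2 CPM of Cdk1, against 1.90 to 8.69 CPM. The Xist and Y-linked counts of 6 libraries went against the labelled sex, and the labels of 5 carry the letter of the other sex. Comparisons of the ages and of the sexes are also given without these libraries.

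Age differences were tested with edgeR's quasi-likelihood F test, with sex and age groups and the replicate set in the model, and with Benjamini-Hochberg adjustment over all 21118 genes. Replicates are animals, and the p-values measure the spread between them. Set S, which holds P7 alone, has a term of its own. Its mean level is therefore in the printed P7 means (n = 12) but not in the fitted P7 steps. Its 4 libraries averaged 287 CPM of Dnm1l, 276 of Mfn2, 197 of Opa1 and 26.5 of Ppargc1b. The means of all P7 libraries were 219, 189, 137 and 15.7 CPM. Fis1 went the other way, with 132 CPM in set S, against 258 CPM over all P7 libraries. Over the 6 ages, 7 of the 10 genes passed an adjusted p of 0.05, where 43.5% of all genes did. These were Mtfp1 (edgeR adjusted p 6.06e-17), Esrra (5.39e-10), Ppargc1b (4.81e-07), Ppargc1a (2.35e-05), Mfn1 (0.0018), Dnm1l (0.00219) and Fis1 (0.00784). Opa1 (0.0803), Mfn2 (0.782) and Mff (0.829) did not. Between adults and P1, 8 genes were higher in adults and 0 lower, against 41.3% of all genes called, 21.8% higher and 19.5% lower, and the median difference of the 10 was 0.68 on the log2 scale, against 0.06 over all genes. Without the replicate set in the model, 5 of the 10 passed in each of these tests, namely Ppargc1a, Ppargc1b, Esrra, Mtfp1 and Mfn1. Fewer of all genes passed over the 6 ages in that fit too, as the closing section gives. For adults against P1 the count of 8 was 6 without the 3 libraries with the fewest genes (Fis1 and Opa1 were lost), 8 without those of doubtful sex and 8 without P7 male 6 and P14 male 6. The shares of all genes in these refits of adults against P1 are not given here, so their counts have no background beside them. In such pulled-down tissue RNA, fewer cells of a type and less RNA per cell cannot be told apart.

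Mtfp1 had the widest change. It averaged 14.4 ± 5.03 CPM at P1 (SD, n = 8), 24.0 ± 3.76 at P4 (n = 8) and 51.8 ± 33.2 at P7 (n = 12), then 103 ± 32.9 at P14 (n = 10), 97.4 ± 17.9 by P35 (n = 6) and 124 ± 33.7 in adults (n = 9). The lowest, median and highest adult libraries had 80.9, 125 and 198 CPM, against 8.75, 12.4 and 21.0 CPM in P1 libraries. Every adult library was above every P1 library. The fitted difference was 3.18 ± 0.20 on the log2 scale (SE), a fold of 9.06 with a 95% interval of 6.88 to 11.9 (edgeR adjusted p = 9.48e-16), and it lay between 2.78 and 3.61 within each of the 5 replicate sets that hold both ages. Mtfp1 was also the gene of the 10 that passed at each of the first 3 steps of age. It was higher at P4 than at P1 by 0.81 (edgeR adjusted p = 0.0291), at P7 than at P4 by 1.27 (0.000479) and at P14 than at P7 by 0.78 (0.0131). Without the replicate set in the model the step to P7 alone passed (1.45, edgeR adjusted p = 0.00101), while those to P4 (0.78, 0.723) and P14 (0.64, 0.334) did not. Of all genes, 0.44% passed at the step to P4 (0.242% higher, 0.199% lower), 1.67% at that to P7 (1.25% higher, 0.417% lower) and 3.3% at that to P14 (1.65% higher, 1.65% lower).

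The libraries that went against their age touch these steps, since P7 male 6 had 149 CPM of Mtfp1, against 25.0 to 67.9 CPM in the other P7 libraries, and P14 male 6 had 59.3 CPM, against 82.9 to 169 CPM in the other P14 libraries. Without both, Mtfp1 was higher by 0.95 at P7 than at P4 (edgeR adjusted p = 0.00944), by 1.21 at P14 than at P7 (1.25e-05) and by 0.81 at P4 than at P1 (0.0051). Of 16 fits that each left out 1 library of P1 or P4, 5 kept the step to P4 (without P1 female 1, P1 male 3, P1 female 4, P1 female 6 or P4 male 4), and the others had an adjusted p up to 0.0856. The step to P14 was lost without P7 male 2, with a difference of 0.55 and an edgeR adjusted p of 0.164. The later steps, P35 against P14 with -0.07 (95% interval -0.45 to 0.32) and adults against P35 with 0.38 (-0.02 to 0.78), did not pass.

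Of the biogenesis genes, Esrra averaged 26.0 ± 8.67 CPM at P1, 39.9 ± 12.46 at P4 and 49.4 ± 16.7 at P7, then 68.5 ± 24.4 at P14, 85.3 ± 32.1 by P35 and 87.6 ± 32.2 in adults (SD). The lowest, median and highest adult libraries had 49.1, 84.3 and 138 CPM, against 11.6, 26.0 and 35.3 CPM in P1 libraries. Again the 2 ages did not overlap, and the difference was 1.69 ± 0.18 on the log2 scale, a fold of 3.24 (2.51 to 4.17, edgeR adjusted p = 4.38e-10). No single step passed: the first was 0.62 at P4 against P1 (0.0943) and the second 0.56 at P7 against P4 (0.128). The step to P7 passed without the 3 libraries with the fewest genes (0.58, edgeR adjusted p = 0.0197), and the step to P4 passed by DESeq2 (0.63, adjusted p = 0.0281).

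Ppargc1a averaged 36.3 ± 18.9 CPM at P1, 52.0 ± 15.0 at P4 and 64.5 ± 16.2 at P7, then 83.4 ± 18.7 at P14, 96.4 ± 14.0 by P35 and 94.2 ± 12.7 in adults (SD). The adult libraries had a lowest, median and highest level of 62.3, 95.9 and 105 CPM, against 2.74, 35.0 and 70.8 CPM in P1 libraries. Of the 9 adults, 8 lay above every P1 library, and the 2.74 CPM belonged to P1 female 4, the library with the fewest genes. The difference was 1.44 ± 0.24 on the log2 scale, a fold of 2.72 (1.93 to 3.82, edgeR adjusted p = 6.56e-06), and 1.22 without P1 female 4. No step between neighbouring ages passed for Ppargc1a.

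Ppargc1b (PGC-1beta, chr18:61298136-61400431, minus strand) was the least abundant of the 10. It averaged 3.43 ± 3.11 CPM at P1, 5.01 ± 4.70 at P4 and 15.7 ± 11.2 at P7, then 10.4 ± 8.96 at P14, 24.1 ± 20.2 by P35 and 18.2 ± 17.2 in adults (SD). Adult libraries had a lowest, median and highest level of 6.34, 11.9 and 57.4 CPM, against 0, 2.33 and 8.79 CPM in P1 libraries, and 6 of the 9 adults lay above every P1 library. P1 female 4 had 0 counts of Ppargc1b, which allows up to 0.211 CPM (3 counts). The difference was 2.51 ± 0.38 on the log2 scale, a fold of 5.71 (3.37 to 9.69, edgeR adjusted p = 6.94e-07), and 2.28 without P1 female 4. Without the 3 libraries with the fewest genes, Ppargc1b also passed at P7 against P4 (0.93, edgeR adjusted p = 0.0234) and at P35 against P14 (0.84, 0.039), where it was at 0.0958 and 0.301 with them. Without P7 male 6 and P14 male 6 as well, these adjusted p were 0.097 and 0.0822.

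**Figure D1:**
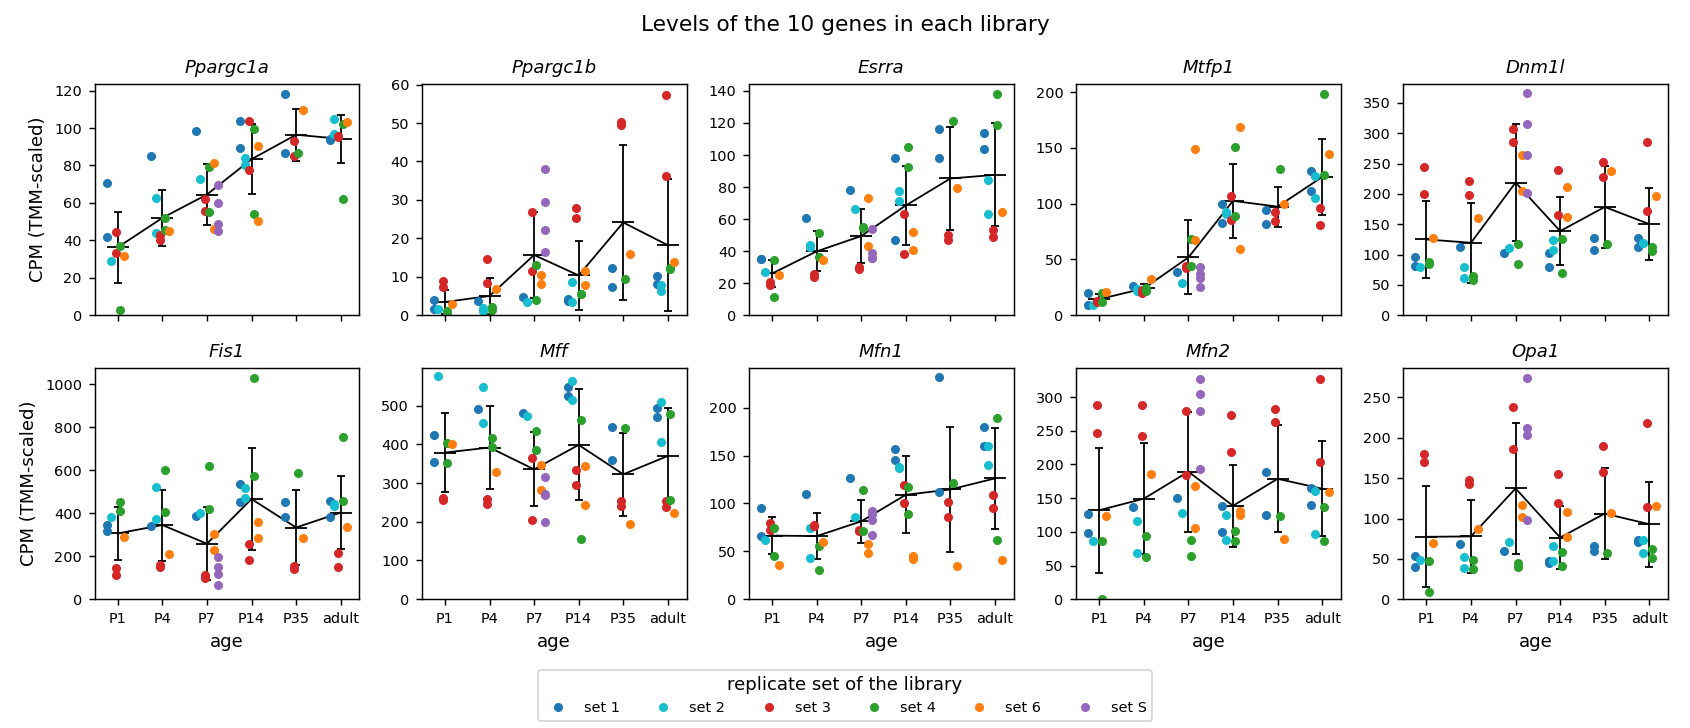
Level of each of the 10 genes in every library, in CPM on TMM-scaled library sizes, by age, with points coloured by replicate set and black bars for the mean ± SD of each age. Ppargc1a, Esrra and Mtfp1 lie higher in adults than at P1, while in Opa1 every library of set 3 lies above every library of set 1, with medians of 164 and 59.9 CPM.

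The remaining fission genes changed less. Dnm1l averaged 125 ± 62.9 CPM at P1, 119 ± 65.8 at P4 and 219 ± 96.2 at P7, then 139 ± 55.4 at P14, 178 ± 68.0 by P35 and 150 ± 59.4 in adults (SD). Adults had a lowest, median and highest level of 106, 120 and 286 CPM, against 78.9, 91.8 and 244 CPM in P1 libraries, and 1 of the 9 adults lay above every P1 library. With the replicate set in the model, adults were higher by 0.38 ± 0.14 on the log2 scale (edgeR adjusted p = 0.0234), and without it by 0.27 (adjusted p = 0.574). The call was lost without P1 male 2 (0.0541), adult female 4 (0.0511) or P1 female 6 (0.0636). It was also lost in 3 of 5 fits that each left out 1 replicate set, with an edgeR adjusted p up to 0.11. Within set 3 adults were higher than P1 by only 0.0012 on the log2 scale. P7 was higher than P4 by 0.61 ± 0.15 (edgeR adjusted p = 0.02), and by 0.69 without the replicate set in the model, which did not pass (0.670). Without P7 male 6 alone the P7 step was 0.60 with an adjusted p of 0.14. The P7 call was also lost without P4 male 2, P4 female 2, P4 male 4 or P4 female 4, each time with a difference of 0.56 to 0.59.

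Fis1 averaged 306 ± 122 CPM at P1, 345 ± 165 at P4 and 258 ± 170 at P7, then 467 ± 238 at P14, 334 ± 175 by P35 and 404 ± 171 in adults (SD). Adults had a lowest, median and highest level of 151, 435 and 753 CPM, against 110, 331 and 450 CPM in P1 libraries, and 3 of the 9 adults lay above every P1 library. The difference of 0.38 ± 0.16 on the log2 scale only just passed (edgeR adjusted p = 0.0482) and did not pass in 12 of 17 fits that each left out 1 library of these ages, with an adjusted p up to 0.182. It was kept without adult male 1, adult female 2, adult male 4, P1 male 2 or P1 female 6. All 5 fits that each left out 1 replicate set lost it, with an edgeR adjusted p up to 0.19. Without the replicate set in the model the difference was 0.41 and did not pass (edgeR adjusted p = 0.447). P14 was higher than P7 by 0.55 ± 0.16 (edgeR adjusted p = 0.0441), and by 0.70 without P7 male 6 and P14 male 6 (0.00905). Without the replicate set in the model this difference was 0.55 and did not pass (edgeR adjusted p = 0.702). This call was lost in 12 of 22 fits with 1 library left out (P14 males 1, 2 and 4, P14 females 1, 3 and 6, P7 male 2, or P7 females 3, 4, 6, 30 and S1), with an adjusted p up to 0.126.

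Mff was close to level, with means of 379 ± 101 CPM at P1, 392 ± 108 at P4 and 335 ± 95.5 at P7, then 398 ± 143 at P14, 322 ± 108 by P35 and 370 ± 124 in adults (SD). The adult and P1 ranges overlapped, at 223 to 510 CPM in adults and 257 to 577 CPM in P1 libraries. Its difference was -0.13 on the log2 scale with a 95% interval of -0.45 to 0.18, which leaves out a rise as large as that of Mfn1.

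Of the fusion genes, Mfn1 averaged 66.5 ± 19.2 CPM at P1, 65.9 ± 24.4 at P4 and 81.3 ± 22.2 at P7, then 109 ± 40.0 at P14, 115 ± 64.9 by P35 and 126 ± 52.5 in adults (SD). Adults had a lowest, median and highest level of 41.0, 140 and 189 CPM, against 35.4, 69.2 and 95.7 CPM in P1 libraries, and 6 of 9 adults lay above every P1 library. Its difference was 0.83 ± 0.20 on the log2 scale, a fold of 1.78 (1.34 to 2.37, edgeR adjusted p = 0.00104), and positive in 5 of 5 replicate sets, from 0.21 to 1.28.

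Mfn2 averaged 132 ± 92.8 CPM at P1, 149 ± 82.5 at P4 and 189 ± 89.2 at P7, then 139 ± 60.6 at P14, 179 ± 79.6 by P35 and 164 ± 70.8 in adults (SD). It had a lowest, median and highest level of 86.8, 159 and 327 CPM in adults, against 0.562, 111 and 288 CPM in P1 libraries, where the 0.562 CPM was again P1 female 4. The difference of 0.54 did not pass (95% interval -0.12 to 1.20, edgeR adjusted p = 0.188), and it was 0.30 without P1 female 4.

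Opa1 averaged 77.3 ± 62.6 CPM at P1, 77.8 ± 44.8 at P4 and 137 ± 81.4 at P7, then 76.4 ± 38.5 at P14, 106 ± 56.4 by P35 and 92.9 ± 52.5 in adults (SD). It had a lowest, median and highest level of 50.5, 73.2 and 219 CPM in adults, against 9.28, 51.6 and 179 CPM in P1 libraries, and only 1 of 9 adults lay above every P1 library. The difference of 0.53 ± 0.19 passed (edgeR adjusted p = 0.0225), but not without P1 female 4 (0.36, 0.0561), without P1 male 1 (0.46, 0.0605) or without the replicate set in the model (0.27, 0.681). The call was also lost in 4 of 5 fits that each left out 1 replicate set, with an edgeR adjusted p up to 0.0911. In the test over 6 ages Opa1 passed when adult male 3, P1 female 3 or P1 female 4 was left out, with an edgeR adjusted p of 0.0459 to 0.0463.

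**Figure D2:**
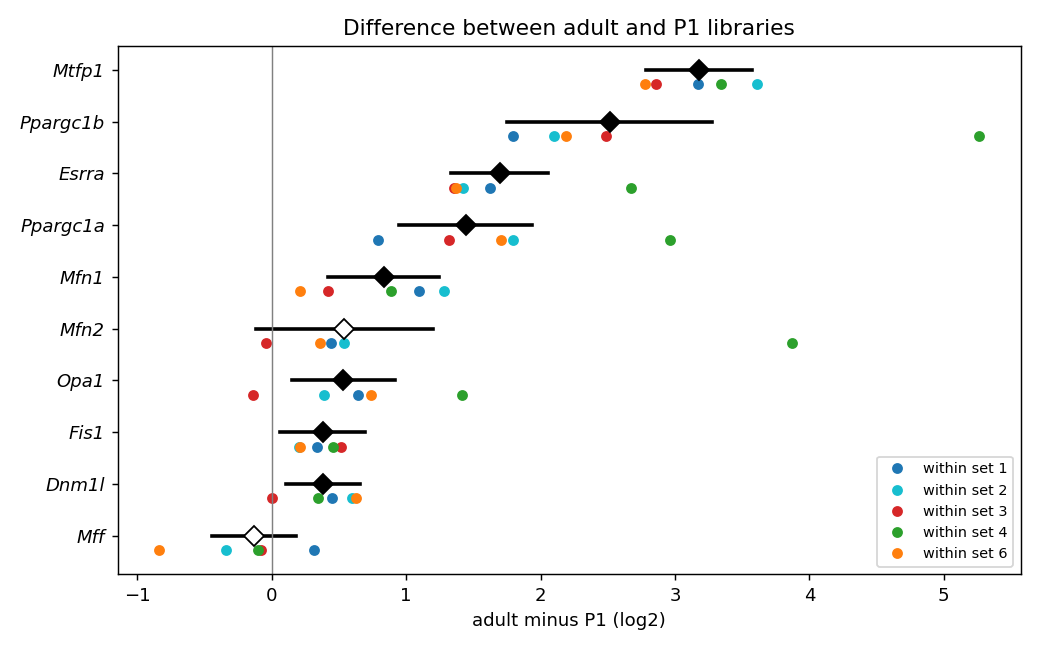
Difference between adult and P1 libraries for each gene on the log2 scale, with diamonds and bars for the edgeR estimate and its 95% interval (filled where the adjusted p was under 0.05) and coloured points for the difference of means within each replicate set. Mtfp1 lies farthest to the right at 3.18, and the estimates of Mfn2 and Mff are the 2 open ones.

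Beside these age differences, markers of other cells moved too. Of all genes, 21.8% were higher in adults than at P1 and 19.5% lower. Of the astrocyte markers 19 of 20 were higher in adults than at P1 and 0 were lower. The markers of oligodendrocytes were higher in 12 of 12, and their summed level ranged from 817 to 2505 CPM in adults and from 115 to 296 CPM in P1 libraries. Of the neuron markers 11 of 20 were higher and 6 lower. Of 12 markers of cycling cells and progenitors 1 (Sox2) was higher and 10 lower. Of 7 oligodendrocyte progenitor markers 2 were higher and 2 lower, of 10 microglia markers 3 were higher and 0 lower, and of 10 endothelial and mural markers 1 was higher and 2 lower. The part of these cell types in the age differences of the 10 genes was not tested.

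To compare levels between genes, CPM were divided by the length of each gene's joined exons. In adults Fis1 stood first with 235 ± 99.9 CPM per kb (SD), then Mtfp1 with 71.3 ± 19.4, Mff with 37.9 ± 12.8, Mfn2 with 31.6 ± 13.6, Dnm1l with 28.9 ± 11.4, Mfn1 with 20.6 ± 8.59, Esrra with 20.0 ± 7.33, Ppargc1a with 14.3 ± 1.92, Opa1 with 11.8 ± 6.67 and Ppargc1b with 4.57 ± 4.31. From Mff down, each gene's mean ± SD overlapped that of the next, while Fis1 and Mtfp1 stood clear of the gene below them. At P1 the order was Fis1 (179 ± 71.1), Mff (38.8 ± 10.4), Mfn2 (25.4 ± 17.9), Dnm1l (24.0 ± 12.1), Mfn1 (10.9 ± 3.13), Opa1 (9.82 ± 7.94), Mtfp1 (8.28 ± 2.89), Esrra (5.94 ± 1.98), Ppargc1a (5.51 ± 2.87) and Ppargc1b (0.859 ± 0.78), where only Fis1 stood clear of its next neighbour and Ppargc1b of the gene above it. Mtfp1 thus stood second of the 10 in adults and seventh at P1. With the longest transcript in place of the joined exons Mff came before Mtfp1 in adults, at 94.4 ± 31.8 against 87.8 ± 23.9 CPM per kb. That length put Fis1 at 426 ± 181 and Esrra at 35.2 ± 12.9 CPM per kb, and placed Dnm1l above Mfn2, Esrra above Mfn1 and Opa1 above Ppargc1a in adults, with an overlap within 1 SD in each of these pairs. At P1 it placed Mtfp1 eighth, below Esrra (10.2 ± 3.56 and 10.5 ± 3.48 CPM per kb), and Dnm1l above Mfn2.

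The order in adults also differed between the replicate sets, of which each holds 1 or 2 adults. Per kb of joined exons, Mfn2 averaged 51.1 CPM per kb in the adults of set 3, where Dnm1l had 43.9 and Mff 25.2. In the adults of set 1 Mff stood above both, with 49.4 CPM per kb, against 29.3 for Mfn2 and 23.1 for Dnm1l. Esrra was level with Ppargc1b at the bottom of the 10 in set 3 adults (11.7 CPM per kb each). In set 4 adults Esrra had 29.3 CPM per kb, and Fis1, Mtfp1 and Mff alone stood above it. Fis1 was first in the adults of all 5 sets that hold adults, and Mtfp1 second in all but set 3, where it had 50.9 CPM per kb, just below Mfn2.

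The replicate sets differed for 9 of the 10 genes (all but Ppargc1a, edgeR adjusted p = 0.141), where 69.1% of all genes differed. Against set 1, set 3 was higher in Ppargc1b by 2.10 on the log2 scale (edgeR adjusted p = 1.26e-06), in Opa1 by 1.54 (1.74e-09), in Dnm1l by 1.17 (4.2e-10) and in Mfn2 by 0.95 (0.00666). The same set was lower in Fis1 (a difference of -1.37, edgeR adjusted p = 1.46e-10), Esrra (-1.03, 6.16e-07), Mff (-0.80, 5.84e-06) and Mfn1 (-0.54, 0.012). The 4 libraries of set S, all from P7, showed differences of 2.06 for Ppargc1b, 1.45 for Opa1, 1.14 for Dnm1l, -1.39 for Fis1, -0.94 for Esrra, -0.84 for Mff and -0.68 for Mtfp1 from set 1, all past the threshold (edgeR adjusted p = 0.0486 for Mtfp1). Set 6 differed by 0.85 in Dnm1l, 0.71 in Opa1 and 0.50 in Mtfp1 (edgeR adjusted p = 0.038), all past the threshold as well. It also passed with -1.53 in Mfn1, -0.68 in Mff, -0.64 in Esrra and -0.49 in Fis1. Mtfp1 was thus higher than in set 1 in set 6 and lower in set S. Set 4 was higher in Fis1 by 0.51 (edgeR adjusted p = 0.013) and lower in Ppargc1a (-0.64, 0.0443) and Mfn1 (-0.62, 0.0212), so Ppargc1a passed in this single contrast though not in the test over all sets. Over all genes, 53.0% differed between sets 3 and 1, 32.6% between S and 1, 34.3% between 6 and 1, 17.9% between 4 and 1 and 0% between 2 and 1, where 1126 genes had an unadjusted p under 0.05. In levels, Fis1 had a median of 150 CPM in set 3 (97.9 to 255 CPM, n = 12), against 384 CPM in set 1 (317 to 534 CPM, n = 10), with no overlap. Opa1 had 164 CPM in set 3 (115 to 238 CPM), against 59.9 CPM in set 1 (39.7 to 73.5 CPM), also with no overlap.

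The ratio of Mfn2 to Mfn1, per kb of joined exons, had a median of 3.63 in set 3 (2.16 to 4.57), 3.58 in set 6 and 3.81 in set S, against 1.20 in set 1 (0.803 to 1.75), 1.42 in set 2 and 1.20 in set 4. The summed neuron markers had a median of 10180 CPM in set 3, 16431 in set 6 and 11176 in set S, against 3059 CPM in set 1, 3779 in set 2 and 6425 in set 4. The summed astrocyte markers had a median of 3763 CPM in set 3, 2567 in set 6 and 3304 in set S, against 15901 CPM in set 1, 9225 in set 2 and 6539 in set 4. Set S holds P7 alone, and these medians mix ages in the other sets. By age, the summed astrocyte markers had a median of 19751 CPM in adults, 3308 at P7 and 1790 at P1, and the ratio of Mfn2 to Mfn1 one of 1.19 in adults, 3.22 at P7 and 1.99 at P1. Within P7, the ratio was 3.38 to 4.66 in the 4 libraries of set S, 3.06 and 4.57 in the 2 of set 3 and 2.16 and 4.11 in the 2 of set 6, against 1.40 in the 1 library of set 1, 1.76 in that of set 2 and 0.655 and 1.46 in the 2 of set 4. The neuron markers within P7 summed to 8079 to 14045 CPM in set S, 10762 and 11665 in set 3 and 13955 and 18907 in set 6, against 2781 CPM in set 1, 3591 in set 2 and 4689 and 6425 in set 4. The astrocyte markers within P7 summed to 1422 to 4722 CPM in set S, 1930 and 1961 in set 3 and 2121 and 2866 in set 6, against 10292 CPM in set 1, 6549 in set 2 and 6092 and 6539 in set 4. The labels do not say what a replicate set shared, and the part of neuronal or astrocyte RNA in the set differences was not tested.

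**Figure D3:**
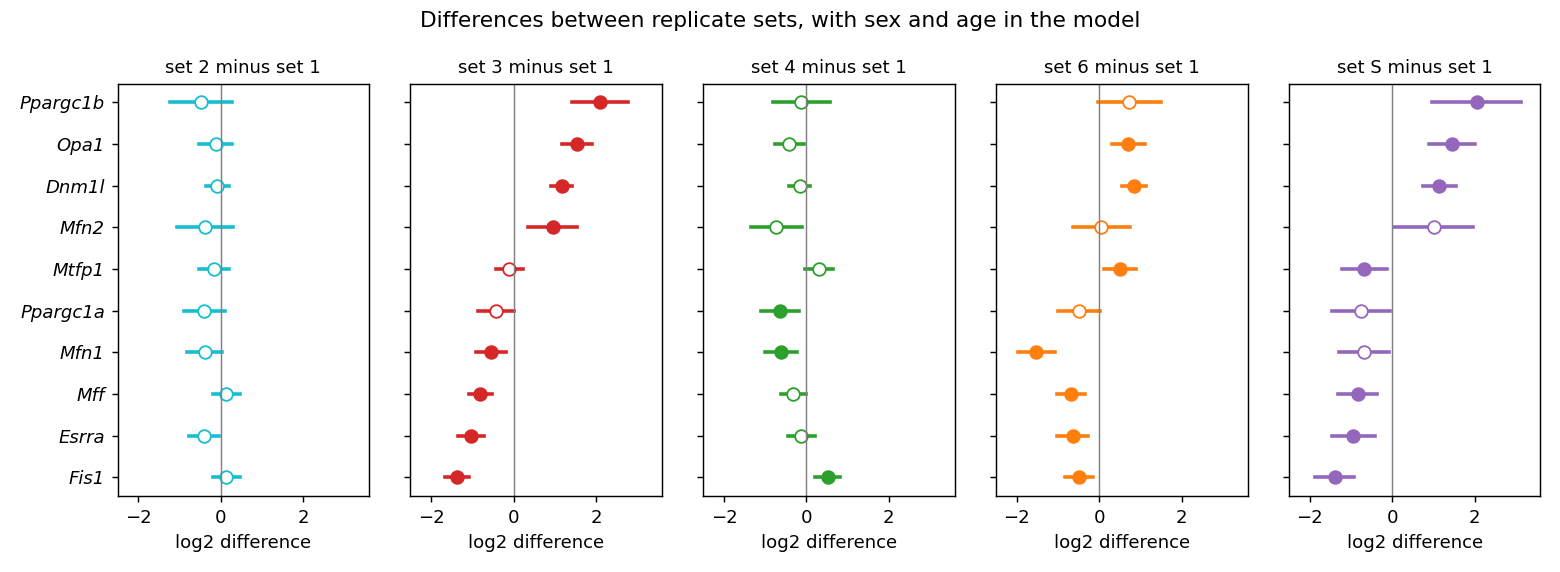
Difference of each replicate set from set 1 on the log2 scale, with sex and age in the model, as points with 95% intervals (filled where the edgeR adjusted p was under 0.05). In sets 3 and S, Ppargc1b, Opa1 and Dnm1l lie to the right and Fis1, Esrra and Mff to the left, and set 2 has no filled point.

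Between the sexes, 0 of the 10 genes passed in females against males averaged over the ages, where 0.0284% of all genes did (6 genes), and at an unadjusted p under 0.05 the count was also 0. DESeq2 called 0 of the 10 as well. The sex labels of 6 libraries are in doubt, and without these 6 the count was also 0 of 10, with 8 of all genes called (1 higher in females). Without the 5 libraries that carry the letter of the other sex it was 0 of 10 and 7 of all genes (1 higher). The differences ran from -0.18 for Mfn2 (95% interval -0.57 to 0.21) to 0.07 for Fis1 (-0.12 to 0.26) on the log2 scale. In the test of sex by age 0% of all genes passed by edgeR (2 genes, none of them among the 10, by DESeq2), and its smallest unadjusted p among the 10 was 0.0617, for Mtfp1. At P7 Mtfp1 had 25.0 to 67.9 CPM in 8 females, against 29.0 to 149 CPM in 4 males, where the 149 CPM was P7 male 6. Within single ages, 0 of the 10 genes and 0% of all genes passed, and 3 of these 60 tests had an unadjusted p under 0.05 by edgeR. These were Mtfp1 at P7 (-0.55, edgeR adjusted p = 0.937) and at P1 (0.57, 0.731) and Esrra at P7 (-0.50, 0.967). At P1 Mtfp1 had 11.5 to 21.0 CPM in 4 females, against 8.75 to 12.7 CPM in 4 males. Without P7 male 6 and P14 male 6 the differences at P7 were -0.05 for Mtfp1 and -0.35 for Esrra. Without the libraries of doubtful sex they were -0.55 and -0.67, and 0 of the 10 passed at any age. Between adults and P1, 4 of the 10 passed within females (Ppargc1a, Ppargc1b, Esrra and Mtfp1; 23.4% of all genes, 11.7% higher) and 5 within males (these and Mfn1; 26.8% of all genes, 14.1% higher), and the same genes passed without the libraries of doubtful sex. Mtfp1 was higher in adults by 3.03 ± 0.28 in females and by 3.33 ± 0.28 in males, and Esrra by 1.85 ± 0.26 in females and 1.54 ± 0.25 in males. The test of sex by age, which covers these differences, gave Mfn1 an unadjusted p of 0.592.

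At the steps between neighbouring ages, the 10 genes gave 1 call at P4 against P1, 2 each at P7 against P4 and at P14 against P7, 0 at P35 against P14 (1.15% of all genes, 0.336% higher and 0.81% lower) and 0 at adults against P35 (0% of all genes), all in the upward direction. The 10 gave 1 unadjusted p under 0.05 at P35 against P14 and 0 at adults against P35, and DESeq2 called 0 of the 10 at both steps. Over all genes, 884 had an unadjusted p under 0.05 at adults against P35, and DESeq2 called 114. At P14 against P7, 349 of 697 called genes were higher, and with DESeq2's size factors 482 of 750 were.

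Other genes of mitochondrial biogenesis, taken from a list of 20, gave 5 higher, 3 lower and 12 not called in adults against P1, with a median of -0.06 on the log2 scale. The share called was 40%, close to the 41.3% of all genes. Sirt3, a deacetylase of the matrix, averaged 153 ± 48.3 CPM in adults and 30.9 ± 16.7 CPM at P1 (SD) and was higher by 2.24 ± 0.28 (edgeR adjusted p = 2.34e-08). Tfeb, a regulator of lysosome genes, was higher by 1.59 ± 0.30 (edgeR adjusted p = 3.46e-05), and Nrf1, an activator of nuclear genes for respiration, was lower (-1.07 ± 0.15, 8.9e-08), with 23.8 ± 4.13 CPM in adults and 50.3 ± 10.1 CPM at P1. Of 17 genes that copy and transcribe mitochondrial DNA, 0 were higher and 4 lower (23.5% called), among them Polg2 (-1.30 ± 0.28, edgeR adjusted p = 0.000169), an accessory subunit of the DNA polymerase, Mterf4 (-0.88 ± 0.24, 0.00265) and Polg (-0.49 ± 0.17, 0.0199), its catalytic subunit. The 13 genes encoded in mitochondrial DNA itself gave 0 calls in either direction by edgeR, and 0 had an unadjusted p under 0.05. By edgeR 5 of these 13 passed the test over 6 ages, led by mt-Co1 (adjusted p 0.0231), mt-Nd2 (0.0258) and mt-Nd4 (0.0353), a share of 38.5%, against 43.5% of all genes. The levels of the 13 were low or widely spread. The mean of mt-Co1 was 46.9 ± 22.1 CPM in adults and 45.6 ± 59.1 CPM at P1 (SD), and that of mt-Atp8 0.232 and 0.293 CPM. Whether their levels in poly(A)-selected pull-down RNA follow those in mitochondria was not tested.

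Among 16 further fission genes 2 were higher in adults, 5 lower and 9 not called, a share of 43.8% called, against 41.3% of all genes. Inf2, a formin that builds actin at the site of cutting, averaged 50.3 ± 27.1 CPM in adults and 3.86 ± 2.59 CPM at P1 (SD) and was higher by 3.84 ± 0.47 (edgeR adjusted p = 1.32e-08). Gdap1 (-0.99 ± 0.17, edgeR adjusted p = 1.35e-05) and March5, a ubiquitin ligase of the outer membrane (-0.65 ± 0.16, 0.000747), were lower. Of 20 genes of fusion and cristae 2 were higher and 4 lower (30% called), including Phb2, a prohibitin of the inner membrane (-0.72 ± 0.11, edgeR adjusted p = 6.32e-07), Mtx2 (-0.65 ± 0.14, 0.000358) and Apoo, a subunit of the complex that shapes cristae (0.73 ± 0.17, 0.000562).

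Of 11 mitophagy genes 6 were higher and 1 lower (63.6% called), with a median of 0.44. Of all genes 41.3% were called, 21.8% higher and 19.5% lower, and the transport and import lists below lie near that share. Bnip3, a mitophagy receptor, averaged 215 ± 35.6 CPM in adults and 82.7 ± 20.7 CPM at P1 (SD) and was higher by 1.39 ± 0.16 (edgeR adjusted p = 2.28e-09). The adaptor Sqstm1 was higher by 1.19 ± 0.18 (1.02e-06) and the kinase Pink1 by 0.77 ± 0.15 (4.02e-05). Of 10 genes of mitochondrial transport 4 were higher and 1 lower (50% called). Snph, which anchors mitochondria in axons, averaged 155 ± 55.3 CPM in adults and 24.6 ± 15.6 CPM at P1 and was higher by 2.79 ± 0.36 (edgeR adjusted p = 2.88e-08), and the outer membrane GTPase Rhot2 (1.16 ± 0.34, 0.00472) and the motor adaptor Trak2 (0.46 ± 0.16, 0.022) were higher too. Of 13 genes of import and mitochondrial mass 3 were higher and 3 lower (46.2% called). The lower ones were the channel Vdac3 (-0.63 ± 0.14, edgeR adjusted p = 0.000412), the import receptor Tomm70a (-0.60 ± 0.13, 0.000328) and the import subunit Timm50 (-0.52 ± 0.19, 0.0231). The higher ones were Vdac1 (0.44 ± 0.10, edgeR adjusted p = 0.000654), Cs (0.51 ± 0.15, 0.00706) and Vdac2 (0.31 ± 0.10, 0.00922).

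**Figure D4:**
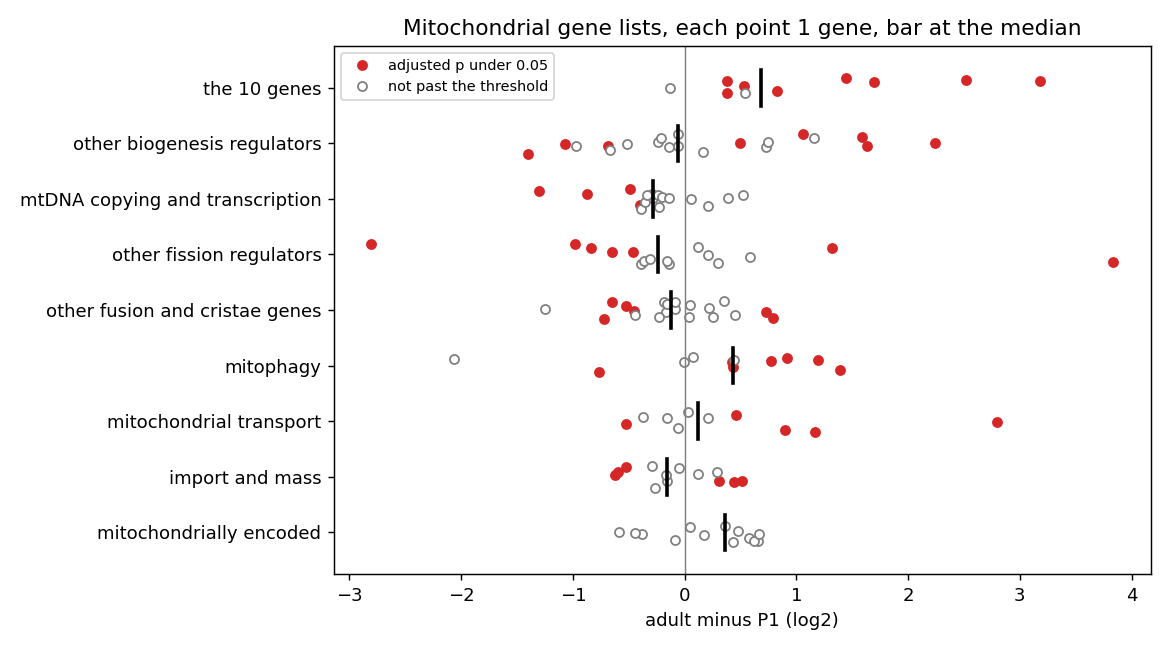
Difference between adult and P1 libraries on the log2 scale for the 10 genes and for the 8 further lists, with 1 point per gene (red where the edgeR adjusted p was under 0.05) and a black bar at each list's median. The median is 0.68 for the 10 genes and lies between -0.28 and 0.44 for the other lists.

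The genes whose levels ran most like each of the 10 were found by Pearson's r of log2 CPM over all 53 libraries, among 11112 genes with a mean of at least 5 CPM. The libraries share ages and replicate sets, so these values describe both together. They also include P1 female 4, the library with the fewest genes, which lay far below all others in some genes. It had 0.562 CPM of Mfn2, against 62.1 CPM or more, and 2.74 CPM of Ppargc1a, against 28.9 CPM or more. For Opa1 it had 9.28 CPM, against 37.0 CPM or more. How far this library sets the r values was not tested. The nearest to Ppargc1a were Rora (0.96) and Stard8 (0.94), to Ppargc1b Synj1 (0.95) and Aak1 (0.95), to Esrra Dbp (0.92) and Cryab (0.91), and to Mtfp1 Hagh (0.94) and Il34 (0.90). For the other fission genes they were Sgip1 (0.95) and Atp6v1h (0.94) for Dnm1l, Smdt1 (0.98) and Mrpl51 (0.98) for Fis1, and Golga7 (0.94) and Rbm7 (0.93) for Mff. For the fusion genes they were Appl2 (0.88) and Ahcyl1 (0.85) for Mfn1, Vps11 (0.98) and Map3k12 (0.97) for Mfn2, and Zyg11b (0.95) and Strbp (0.94) for Opa1.

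Some exons are shared with other genes, and the strand setting of the counting is not given in the sources used here. Esrra shares 73 bases (1.66% of its exons) with Trmt112 on the opposite strand and 91 (2.07%) with Mir6990, Mff shares 195 (2%) with C430014B12Rik on the opposite strand, and Dnm1l shares 243 (4.67%) with Gm49521 on the opposite strand.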

How the data were processed

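TRAP RNA of 53 cortices was poly(A)-selected and sequenced from strand-marked libraries, per the labels' protocols. The authors deposited raw counts for 21118 genes, with a column per animal and no normalization. CASAVA, HISAT2, SAMtools, featureCounts and the build GRCm38.p5 are named in the submitters' processing notes, without versions. Which annotation, strand setting and filter were applied is not stated there. Each gene had a summed count of at least 50 and was counted in at least 6 libraries.

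All genes were fitted with edgeR 4.0.16 in R 4.3.3 (TMM, trended dispersion, robust quasi-likelihood), with 12 groups of sex and age and the replicate set as terms. The P7 libraries sequenced in both runs have no term of their own, and the part of their second run in the P7 steps was not tested. No filter on low counts was applied. Age contrasts average both sexes. CPM use TMM-scaled library sizes, and log2 CPM a prior count of 2. Exon lengths come from GENCODE M21, in which 21021 identifiers were found. The code was tested on simulated data. DESeq2 1.42.0 and the other alternatives are given in the closing section.

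The genes and lists were chosen with earlier results of these data known. All 10 genes are named. From each list, up to 3 genes with the smallest adjusted p of the age test are named, and for each of the 10 genes the 2 most alike, leaving out predicted gene models. The higher genes of the import list and of the markers of cycling cells and progenitors are named as well. Symbols of the table were used throughout, with Twnk counted as Peo1, and 1 gene of the mitophagy list is not reported here.

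The replicate set is in the main model because it defines how these genes are described. As a check of whether the sets pair libraries, deviations from the group means were correlated over genes of at least 5 CPM. Of 223 pairs of 1 set 212 had r over 0.1 (median 0.58), against 331 of 1055 pairs of different sets (median -0.15), and 43 of 53 libraries were on average most alike their own set. Not every pair passed, so the fit without the set, in which the second run alone stays a term, is printed beside the age calls of the 10 genes that it changes.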

Additional observations from a re-analysis of the deposited data

Results flagged for a closer look

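In 50 groups of 1 gene and 1 age with 4 to 10 libraries, 6 held a library farther from the rest than Dixon's 95% limit. That limit is meant for libraries of a single population, where about 1 in 20 groups would pass it. The groups here mix replicate sets, which differed for 9 of the 10 genes, so that rate cannot be set against the 6. Adult female 4 had 62.3 CPM of Ppargc1a, the lowest of 9 adults. Adult female 3, a library of set 3, had the highest adult levels of Dnm1l (286 CPM), Mfn2 (327 CPM) and Opa1 (219 CPM). Set 3 was also higher than set 1 in each of these genes. P35 female 4 had 131 CPM of Mtfp1, the highest at P35. P14 male 4 had 1030 CPM of Fis1, the highest at P14, and is among the 3 libraries with the fewest genes. The P7 groups of 12 libraries were not examined in this way.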

How the results depend on the processing

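Ppargc1a, Ppargc1b, Esrra, Mtfp1 and Mfn1 passed for adults against P1 in 34 of 34 alternatives, Dnm1l in 27, Opa1 in 25 and Fis1 in 12. The count of 8 became 5 without the replicate block, 5 to 7 with 1 replicate set left out and 6 to 8 with 1 library left out. The count over 6 ages stayed between 5 and 8. At P4 against P1 the count of 1 became 0 without the replicate block or without the libraries of doubtful sex, 2 by the DESeq2 test, and 0 to 1 with 1 set or 1 library left out. At P7 against P4 the count of 2 became 1 without the replicate block, without the sex term, without the libraries of the other sex letter, without those of doubtful sex, without P7 male 6 and P14 male 6, and without these and the 3 libraries with the fewest genes. It was 4 without those 3 alone, 3 by the DESeq2 test, 1 with any set left out and 1 to 2 with 1 library left out. At P14 against P7 the count of 2 became 0 without the replicate block or the libraries of the other sex letter, 1 without the second run alone or the libraries of doubtful sex, and 0 to 2 with 1 set or 1 library left out. At P35 against P14 the count of 0 became 1 without the 3 libraries with the fewest genes. Within set 3, Opa1 was lower in adults than at P1, with -0.14. Leaving out P7 male 6 and P14 male 6, and testing the sexes within single ages without doubtful libraries, were chosen after seeing the data. The cause of these changes was not tested.

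Over all genes, 9190 were called for age, 5248 without the replicate block and 6107 without set 3. At P4 against P1 93 were called, 670 by DESeq2 and 0 without the block. At P7 against P4 352 were called, 912 by DESeq2, 1093 without the 3 libraries with the fewest genes, 48 without P7 male 6 and P14 male 6 and 32 without the block. At P14 against P7 697 were called, 1587 by DESeq2, 1890 without P7 male 6 and P14 male 6 and 4 without the block. At P35 against P14 242 were called, 778 by DESeq2, 1049 without the 3 libraries with the fewest genes and 5 without the block. Between the sexes 6 were called and 103 by DESeq2. edgeR's filterByExpr removed 133 genes, and a mean of at least 1 CPM kept 15495. At the level of Ppargc1b counts are few, so its single libraries are less precise.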
